A study of Mus musculus with 2 samples.

Results

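The Bcl2 family survival and death genes are 10 genes, chosen by name, of the 32285 genes in the count matrices of a single-cell RNA-seq study of mouse bone marrow cells in osteoclast culture. They are the survival genes Bcl2, Bcl2l1, Mcl1, Bcl2a1b and Bcl2a1d, the pore-forming effectors Bax and Bak1, and the BH3-only genes Bbc3, Pmaip1 and Bcl2l11. Members were found by symbol, and all 10 were present. No cut on a measured value chose them, but they were chosen with earlier results of these data known. Cells came from the bone marrow of a 3-month-old wild-type male C57BL/6J mouse, and they were grown in medium stripped of hormones, for 48 h on 5 ng/mL of M-CSF and then for 24 h on 100 ng/mL of M-CSF, 30 ng/mL of RANKL and 10 ng/mL of human TNF. The DHT library received 1 nM of the androgen 5α-dihydrotestosterone (DHT) in both phases, and the Vehicle library received an equal volume of ethanol. Both libraries therefore share the inflammatory cytokine culture, and only the cells that stayed attached were collected. The labels call them osteoclast precursors, the mononuclear myeloid cells from which bone-resorbing osteoclasts form by fusion.

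Proteins of this family decide whether a cell keeps its outer mitochondrial membrane closed. The survival members hold Bax and Bak1 in check, BH3-only members bind the survival members and release that hold, and active Bax and Bak1 then open the membrane and start the caspase cascade. In the osteoclast lineage, Bcl2l11, which encodes BIM, is known as a brake on lifespan that cytokine signals turn over quickly, and Mcl1 and Bcl2l1, which encodes BCL-XL, are known for support of survival.

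Each condition is 1 library, so no value has a replicate check and no p-value is given. The DHT library held 10798 barcodes with 319430510 UMIs (unique molecules), and the Vehicle library held 10630 barcodes with 453802415 UMIs. After filters, 7708 DHT cells with a median of 30133 UMIs and 8590 Vehicle cells with a median of 50833.5 UMIs remained. The 2 libraries shared 33 barcode sequences, 18 of them among the filtered cells. A level is given as counts per 1000000 UMIs (CPM) summed over the cells of a class, and every interval is a 95% exact interval that covers counting error only. A gene was measured in a class where it reached 5 CPM in 1 or both libraries and 30 UMIs over both, and it was called where the libraries differed by at least 1.5-fold. Clusters were named by marker genes, and 7 classes had at least 100 cells in each library. Osteoclast-like cells, marked by Acp5, Ctsk and Atp6v0d2, were 26.5% of DHT cells (2043 cells) and 47.6% of Vehicle cells (4088 cells), while neutrophil-like cells were 1731 in DHT and 1006 in Vehicle. These sizes depend on how cells are filtered and classes are drawn.

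In the labelled cell type, the osteoclast-like class, the family differed little between the libraries. Of 8 members measured there, 0 were called, against 1.44% of 9402 genes called higher with DHT and 0.149% called lower. The median log2 ratio of DHT over Vehicle was 0.09 for the measured members and 0.04 for all measured genes. Bax, the effector gene, was lower in DHT than in Vehicle, and Bcl2l11 and Bbc3 were higher by less than the 1.5-fold limit. Bcl2a1d and Pmaip1 were under the minimum of 5 CPM, so 8 of 10 members passed the filter.

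Among the survival genes, Mcl1, a short-lived guardian that many myeloid cells need, stood at 305 CPM in DHT and 290.2 CPM in Vehicle osteoclast-like cells, a ratio of 1.05 (1.04 to 1.06). Bcl2, the founding survival gene, stood at 7.996 CPM in DHT and 8.49 CPM in Vehicle, a ratio of 0.942 (0.874 to 1.02). Bcl2l1 stood at 6.28 CPM in DHT and 6.19 CPM in Vehicle, a ratio of 1.02 (0.931 to 1.11). The intervals of Bcl2 and Bcl2l1 include no difference, and that of Mcl1 leaves a difference of a few percent.

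Bcl2a1b encodes A1, a survival protein induced by NF-kappaB and known from neutrophils and activated myeloid cells. Its level was 5.62 CPM in DHT and 4.61 CPM in Vehicle osteoclast-like cells, a ratio of 1.22 (1.11 to 1.34). The mouse genome holds several near-identical copies, so this value and that of Bcl2a1d, at 0.7996 CPM in DHT and 0.660 CPM in Vehicle, may hold reads of one another. In the GRCm38 annotation Bcl2a1b lies on the plus strand at chr9:89199209-89207827 and Bcl2a1d on the minus strand at chr9:88723285-88731914. Their transcripts were 99.1% identical over 817 aligned bases. Of the 90-base stretches in the last 400 bases of the transcript, where 3′ reads fall, 34.1% of those of Bcl2a1b and 60.8% of those of Bcl2a1d were also found in another copy. Over the 14 settings in which it was measured, the ratio of Bcl2a1b ranged from 1.18 to 1.74 and passed 1.5-fold in 6. All 6 redrew the clusters or changed the cell filters. Among measured settings of that kind, only removal of the 10% highest doublet scores stayed under the limit, at 1.44. The rest kept the same cells and classes and gave 1.18 to 1.22, so the lack of a call depends on how the class is drawn. With no doublets removed the ratio was 0.971, with both libraries under 5 CPM. The sum over Bcl2a1a, Bcl2a1b and Bcl2a1d gave the same ratio in osteoclast-like cells, 1.22 (1.12 to 1.33).

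The likeness of the copies reaches into their promoters, which is why both are printed here. RefSeq promoter windows on GRCm38.p6 (250 bases before to 50 bases after the start) were found for 9 of the 10 members. Over 200 aligned of the 250 upstream bases, those of Bcl2a1b and Bcl2a1d were 99% identical. The printed stretches are not fully alike, as that of Bcl2a1b holds gaggaa directly before the letters in capitals and that of Bcl2a1d does not. The stretches below are chr9:89199075-89199164 on the plus strand and chr9:88731915-88732004 on the minus strand, each 5′ to 3′, with the letters GAGGAAGT, a core to which the myeloid factor PU.1 can bind, in capitals.
Bcl2a1b: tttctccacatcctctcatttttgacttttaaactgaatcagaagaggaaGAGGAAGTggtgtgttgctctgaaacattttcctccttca
Bcl2a1d: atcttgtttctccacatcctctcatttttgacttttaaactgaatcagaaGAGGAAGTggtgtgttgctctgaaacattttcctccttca
Searched on both strands, GAGGAAGT was present in 2.44% of 32851 promoter windows, and among members in those of Bcl2a1b, Bcl2a1d and Bak1. The letters TGANTCA, a loose form of the AP-1 site with any base at N, were present in 6.75% of windows. Among members they were present in those of Bcl2a1b and Bcl2a1d, and in both printed stretches a match reads tgaatca. Whether AP-1 binds there was not tested. The core of the interferon-stimulated response element, GAAA and GAAA with any pair of bases (NN) between, was present in 2.98% of windows and in 0 of the 14 windows of members, and a full androgen response element was present in 0.0609% of windows and in 0 of the 14.

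Bax, whose protein opens the mitochondrial membrane, stood at 304 CPM in DHT and 361 CPM in Vehicle osteoclast-like cells. The ratio was 0.842 (0.832 to 0.852), the lowest of the 8 measured members. Bak1, the partner effector, was on the other side, at 98.8 CPM in DHT and 91.4 CPM in Vehicle, a ratio of 1.08 (1.06 to 1.10). Exons of Bak1 overlap those of Ggnbp1 on the opposite strand, which stood at 2.97 CPM in DHT and 2.88 CPM in Vehicle, and whether counting used the strand is not given in the sources used here.

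Of the BH3-only genes, Bcl2l11 stood at 81.5 CPM in DHT and 71.0 CPM in Vehicle osteoclast-like cells, a ratio of 1.15 (1.12 to 1.18). Bbc3, which encodes the p53 target PUMA, stood at 11.3 CPM in DHT and 9.00 CPM in Vehicle, a ratio of 1.25 (1.17 to 1.34). Pmaip1, which encodes NOXA, a partner of MCL1, stood at 4.87 CPM in DHT and 3.65 CPM in Vehicle, a ratio of 1.33 (1.20 to 1.48), under the CPM minimum in both. All 3 BH3-only genes were higher in DHT, and so was each of the 3 in the level at 1 common mix of the osteoclast-like clusters, with ratios of 1.14, 1.27 and 1.38.

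**Figure D1:**
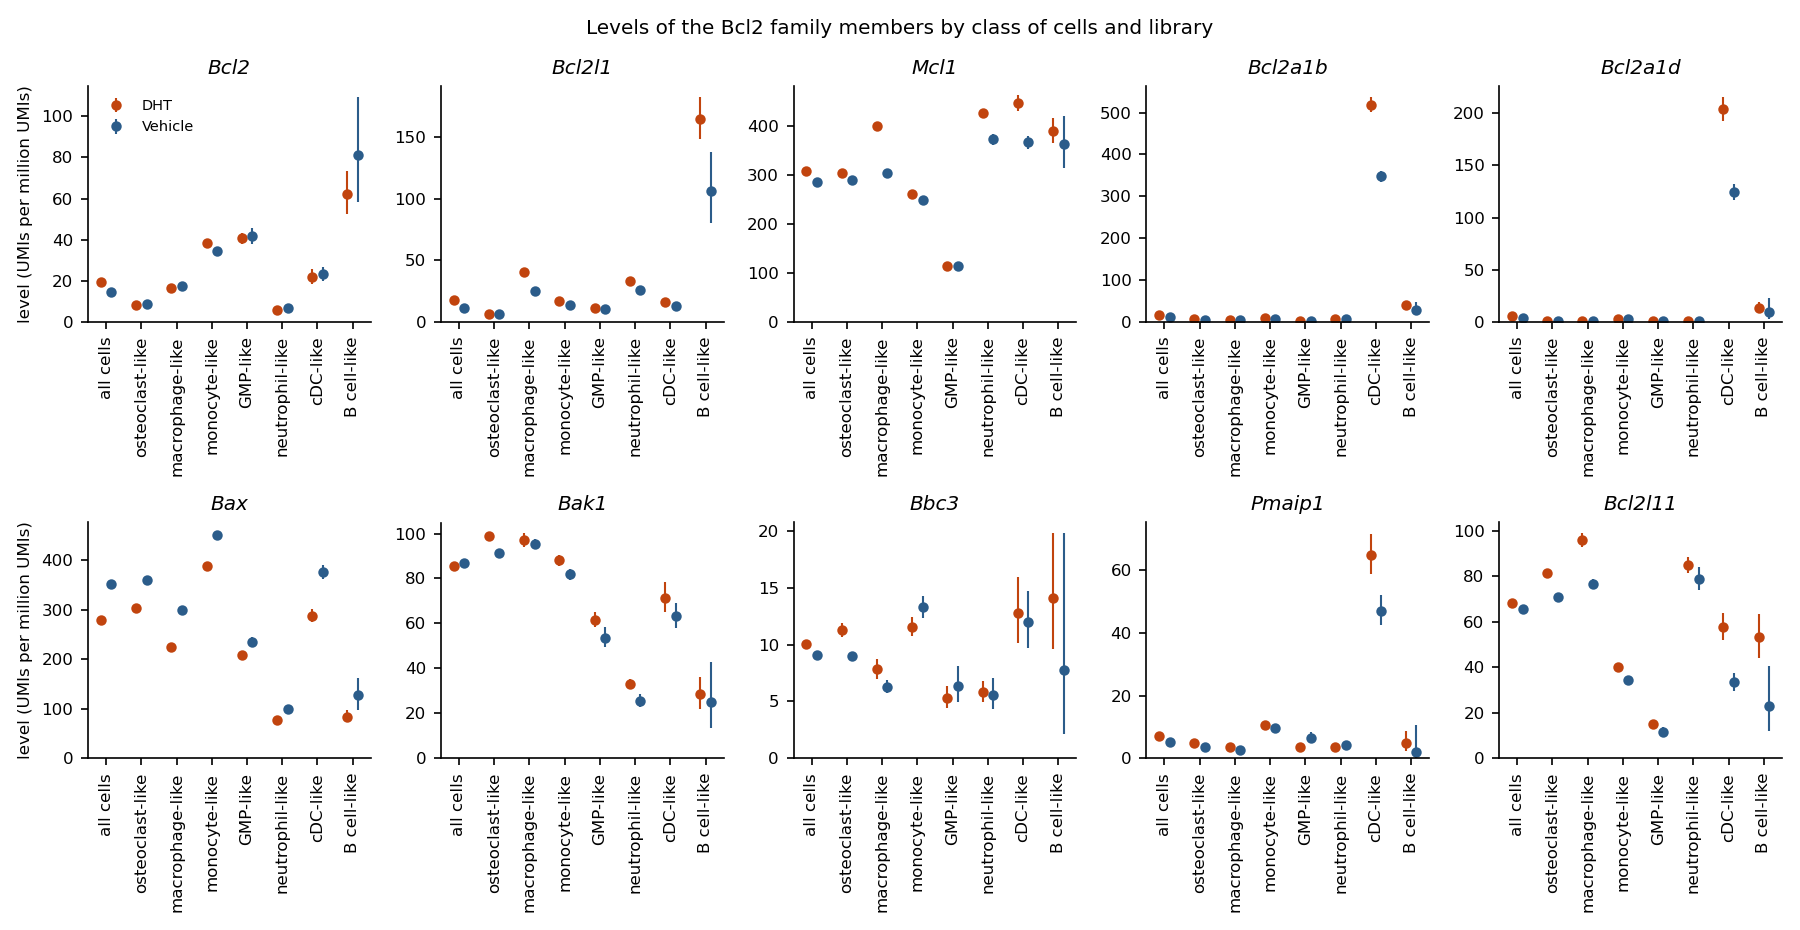
Level of each member (vertical axis, CPM, linear from 0) in all filtered cells and in 7 classes (GMP, granulocyte-monocyte progenitor, and cDC, conventional dendritic cell) of the DHT library (orange) and the Vehicle library (blue). Bars are 95% exact Poisson intervals of counting error, Bax is lower in DHT in every group, and Bcl2a1b and Bcl2a1d are highest in the cDC-like class.

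Osteoclast-like cells fell into 3 clusters. Of all measured genes, 1.75% were called higher and 0.234% lower in cluster 1, 1.34% and 0.075% in cluster 0, and 1.71% and 0.929% in cluster 6. Cluster 1, led by histone genes such as Hist1h1b, was the one with a called member: Bcl2a1b stood at 7.71 CPM in DHT and 4.72 CPM in Vehicle, a ratio of 1.63 (1.43 to 1.87). In cluster 0 it stood at 5.77 CPM in DHT and 5.39 CPM in Vehicle, and in cluster 6 at 0.942 and 2.47 CPM. In clusters 0 and 6 the 3 copies together stood at 7.14 and 1.71 CPM in DHT and at 6.53 and 2.99 CPM in Vehicle. In cluster 6 both Bcl2a1b and this sum were under the minimum of 5 CPM. The Bcl2a1b difference therefore varied in size and direction among the osteoclast-like clusters, while Bax was lower in DHT in each of the 3. Markers of other cell types differed between the libraries in the osteoclast-like class too: the summed level of 10 neutrophil markers was 989 CPM in DHT and 437 CPM in Vehicle, that of 10 macrophage markers 684 and 574 CPM, and that of 8 monocyte markers 100.5 and 60.6 CPM, with 0 markers at 0. Their part in the Bcl2a1b difference was not tested. Free RNA in the osteoclast-like class was estimated from neutrophil and B cell markers, 17 in DHT and 11 in Vehicle. With it subtracted, the log2 ratios there were -0.25 for Bax, 0.20 for Bcl2l11 and 0.25 for Bcl2a1b. That of Bcl2l1 moved from 0.02 to -0.04, and that of Bcl2a1d, under the CPM minimum, from 0.28 to 0.12.

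Over all filtered cells, 3 of 10 members were called, and all 3 were survival genes that were higher in DHT: Bcl2l1, Bcl2a1b and Bcl2a1d. Of 9803 measured genes, 7.48% were called higher and 0.357% lower. Bcl2l1 stood at 17.9 CPM in DHT and 11.1 CPM in Vehicle, a ratio of 1.61 (1.54 to 1.67). Bcl2a1b stood at 17.2 CPM in DHT and 11.3 CPM in Vehicle, and its ratio was 1.52 (1.46 to 1.58). Bcl2a1d stood at 5.71 CPM in DHT and 3.20 CPM in Vehicle, and its ratio was 1.79 (1.66 to 1.92). Bcl2l1 passed 1.5-fold in 12 of the 12 settings in which it was measured (1.52 to 1.98), Bcl2a1b in 8 of 12 (1.23 to 1.58), and Bcl2a1d in 10 of 11 (1.47 to 1.89). These 3 were all higher over all cells by more than they were in the osteoclast-like class.

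The classes differed in size between the libraries, and the members differ between classes, so each all-cell ratio was also computed with class means weighted by 1 common class mix. The ratio of Bcl2 moved from 1.34 to 1.04, that of Bcl2l1 from 1.61 to 1.34, that of Bcl2a1b from 1.52 to 1.37 and that of Bcl2a1d from 1.79 to 1.53. At a common mix Bcl2a1d was thus the 1 member still past 1.5-fold. Bax moved from 0.797 to 0.826 and remained lower, and Bak1 moved from 0.984 to 1.07, to the other side of 1. Whether the remaining ratios come from changes within cells was not tested.

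**Figure D2:**
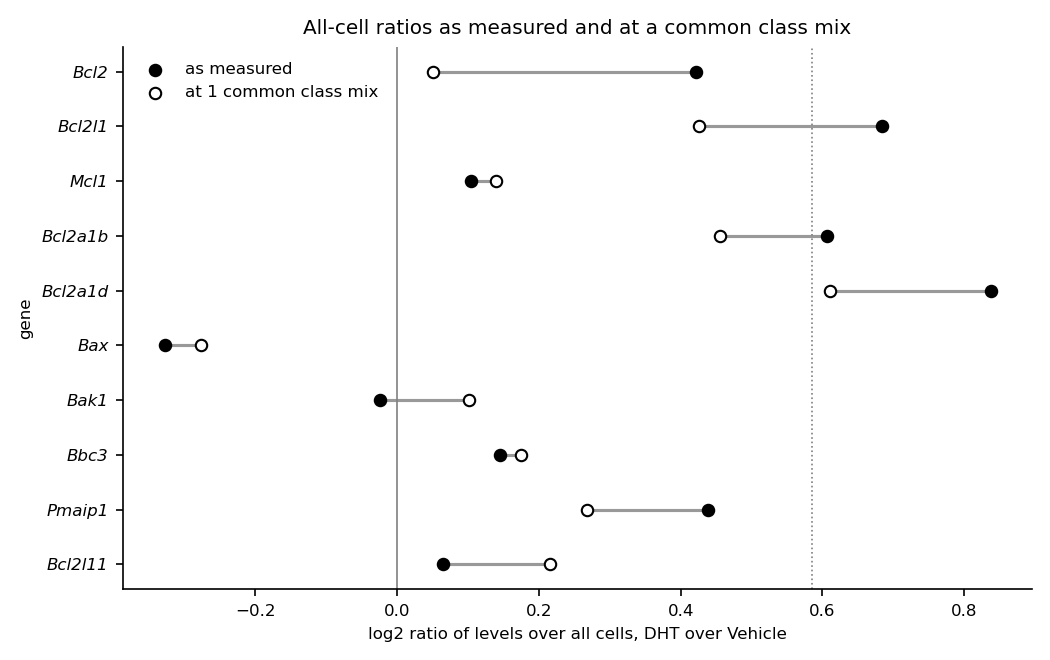
Log2 ratio of DHT over Vehicle over all filtered cells (horizontal axis) for each member, as measured (filled points) and with class means weighted by 1 common class mix (open points); the dotted line marks 1.5-fold. Bcl2 moves from 0.42 to 0.05, and Bcl2a1d stays right of the dotted line.

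Across the 7 classes, Bax was the member that was lower throughout. It was lower in DHT in 7 of 7 classes, with log2 ratios from -0.60 to -0.17, and in 16 of 16 clusters, with log2 ratios from -0.93 to -0.03. The interval of the ratio includes no difference in cluster 15, which held 18 DHT and 7 Vehicle cells. Of 6828 genes measured in all 7 classes, 8.96% were lower in all 7. By class, the level of Bax in DHT and Vehicle was 225 and 299.7 CPM in macrophage-like cells, 388 and 452 CPM in monocyte-like cells, and 209 and 235 CPM in granulocyte-monocyte progenitor-like cells. It was 77.9 and 99.6 CPM in neutrophil-like cells, 288 and 376 CPM in conventional dendritic cell-like cells, and 83.9 and 127 CPM in B cell-like cells. Of the 7 class differences, that in B cell-like cells passed 1.5-fold. The Bax gene lies at chr7:45461697-45466898 on the minus strand of GRCm38.

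Bcl2l1, Mcl1, Bak1 and Bcl2l11 were higher in DHT in 7 of 7 classes, as 14.8% of the genes measured in all 7 were. For Bcl2l11 the sign was the same under every alternative run in each class. For the others it was not: over alternatives the lowest log2 ratio was -0.12 for Bcl2l1 in conventional dendritic cell-like cells, -0.34 for Mcl1 in progenitor-like cells and -0.05 for Bak1 in neutrophil-like cells. Bcl2 was lower in 6 of 7 classes although it was higher over all cells, but in each of the 6 the interval of its ratio includes no difference. In monocyte-like cells, where it was higher, the interval was 1.04 to 1.18. The sign of Bcl2 held under every alternative run only in osteoclast-like and B cell-like cells.

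**Figure D3:**
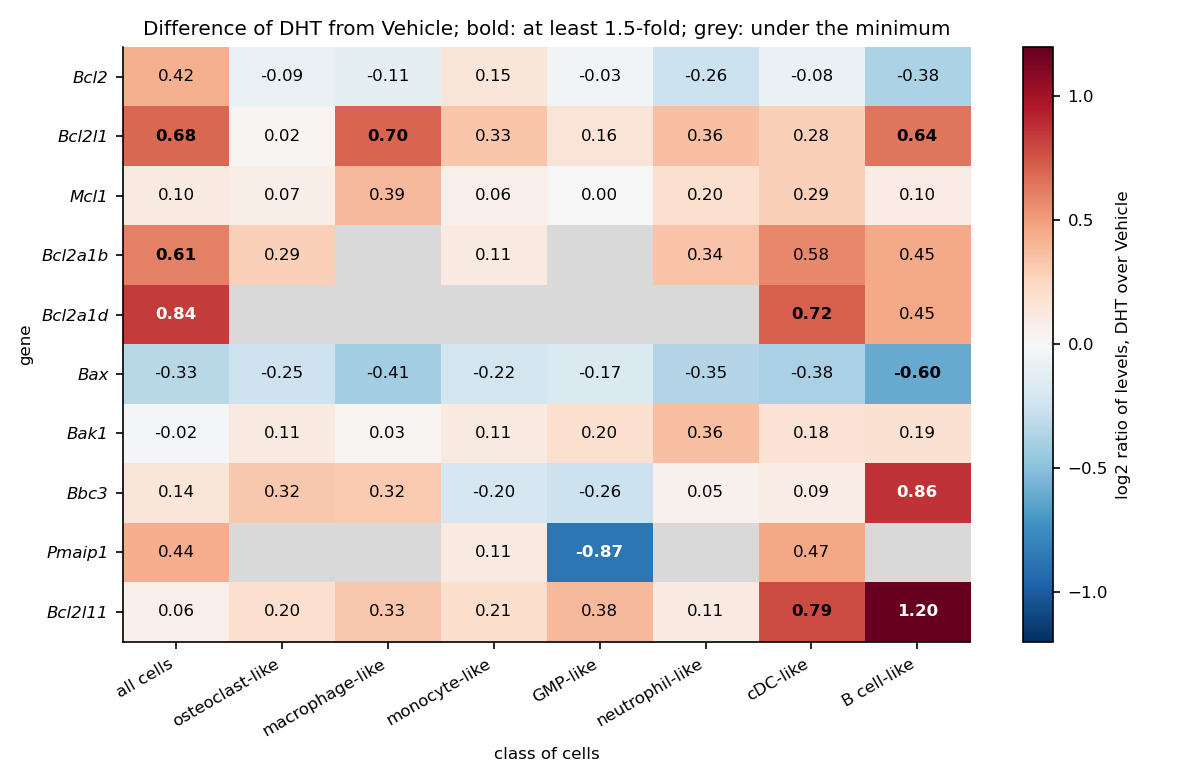
Log2 ratio of DHT over Vehicle (colour and printed value) for each member (rows) in all filtered cells and in each class (columns). Bold values are at least 1.5-fold, and grey marks a gene under the minimum of 5 CPM or 30 UMIs; the Bax row is below 0 throughout and the Bcl2l11 row is above 0 throughout.

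In the 6 classes other than the osteoclast-like one, 8 of 51 measured pairs of member and class were called, 6 higher and 2 lower. Of all measured genes, 1.99% (monocyte-like) to 13.5% (B cell-like) were called higher in these classes, and 0.572% to 7.04% lower. B cell-like cells, with the largest shares, gave 3 of the higher and 1 of the lower pairs. In macrophage-like cells, marked by Pf4, Ms4a7 and C1qa, 1 of 7 measured members was called, beside 4.36% of genes called higher and 1.4% lower. It was Bcl2l1, at 40.7 CPM in DHT and 25.0 CPM in Vehicle, a ratio of 1.63 (1.52 to 1.74). The gene lies at chr2:152780668-152831728 on the minus strand. Mcl1 stood at 399.6 CPM in DHT and 305 CPM in Vehicle, a ratio of 1.31 (1.28 to 1.34), and Bcl2l11 at 96.0 and 76.6 CPM, a ratio of 1.25 (1.20 to 1.31). As a share of UMIs, both survival genes and Bcl2l11 were thus higher in DHT macrophage-like cells, and Bax was lower. Counts per cell were not compared, and the median depth of these cells was 36427 UMIs in DHT and 51449 UMIs in Vehicle.

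The Bcl2l1 difference was not even within the macrophage-like class. In cluster 2 it stood at 40.6 CPM in DHT and 22.6 CPM in Vehicle, a ratio of 1.80 (1.67 to 1.94). In the smaller cluster 13 it stood at 41.1 CPM in DHT and 38.0 CPM in Vehicle, a ratio of 1.08 (0.903 to 1.29). Over 17 settings the ratio in macrophage-like cells ranged from 1.30 to 1.77 and passed 1.5-fold in 12. Settings that kept the same cells and classes gave 1.60 to 1.77 and all passed. Those that redrew the clusters or changed the filters gave 1.30 to 1.70. Of these, Leiden resolution 1.0, no doublets removed and the mitochondrial limit of 5% passed, and the others did not. The call therefore depends on how the cells are filtered and the class is drawn. Beside it, 11 of 20 G2 and M phase genes were called lower and 85 of 88 measured interferon-stimulated genes higher in DHT macrophage-like cells, and their part in the Bcl2l1 difference was not tested.

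**Figure D4:**
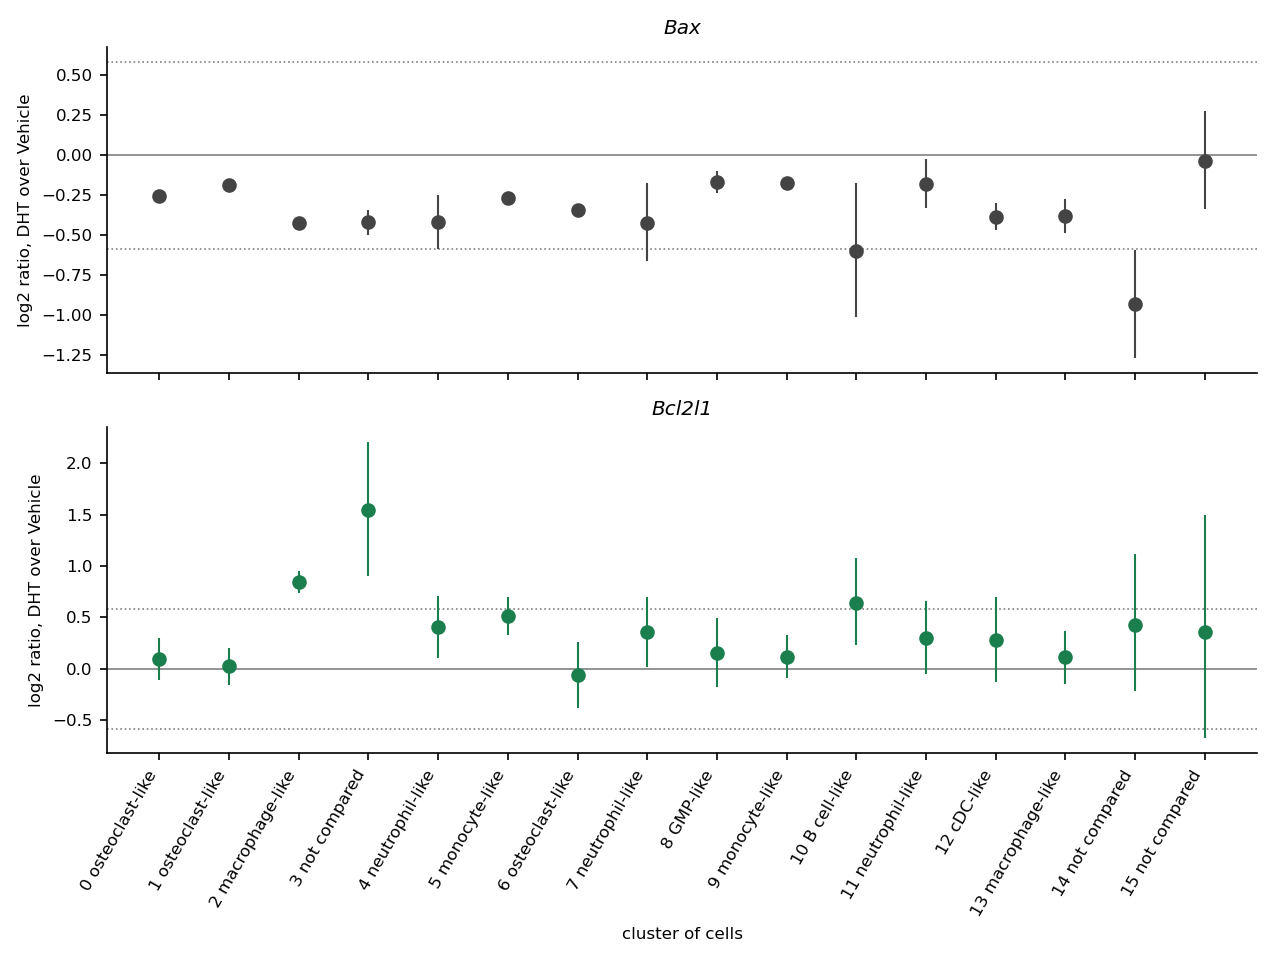
Log2 ratio of DHT over Vehicle (vertical axis) for Bax (top) and Bcl2l1 (bottom) in each of 16 clusters (horizontal axis), with 95% exact intervals of counting error; dotted lines mark 1.5-fold. Bax is below 0 in all 16 clusters, and Bcl2l1 is past 1.5-fold in clusters 2, 3 and 10.

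In conventional dendritic cell-like cells, marked by H2-Ab1 and Ccr7, 2 of 10 members were called, beside 9.1% of genes called higher and 4.46% lower. Only 4 markers of this class, or 50% of its list, were raised in its cluster. That is the smallest share that the naming rule allows. The class held 162 DHT cells and 207 Vehicle cells. Bcl2a1b stood at 519 CPM in DHT and 348 CPM in Vehicle, a ratio of 1.49 (1.42 to 1.57), just under the limit. Bcl2a1d stood at 204 and 124 CPM, a ratio of 1.64 (1.51 to 1.79), and was called, as in 13 of 15 settings (1.45 to 1.92). Leiden resolution 1.0 and removal of the 10% highest doublet scores are not among the 15, as neither gave this class for comparison. The 3 copies together stood at 797 CPM in DHT and 522 CPM in Vehicle, a ratio of 1.53 (1.47 to 1.59). These were the highest Bcl2a1 levels of any class, and Bcl2a1b was among the 10 leading genes of the cluster although the members were left out of clustering.

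Bcl2l11, at chr2:128126038-128162547 on the plus strand, stood at 57.6 CPM in DHT and 33.4 CPM in Vehicle conventional dendritic cell-like cells, a ratio of 1.72 (1.47 to 2.03), and was the other called member. Pmaip1 stood at 65.0 CPM in DHT and 47.1 CPM in Vehicle, a ratio of 1.38 (1.20 to 1.59). Bcl2a1d, a survival gene, and Bcl2l11, a death gene, were thus both called higher in this class. The median log2 ratio of 20 G2 and M phase genes was -1.63 there, and its part in the member differences was not tested.

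B cell-like cells, marked by Ebf1 and Cd79a, were few, with 340 in DHT and 113 in Vehicle, and the Vehicle cells held 518347 UMIs in all. Of 9 measured members 4 were called, 3 higher and 1 lower, beside 13.5% of genes called higher and 7.04% lower. Bcl2l11 stood at 53.1 CPM (121 UMIs) in DHT and 23.2 CPM (12 UMIs) in Vehicle, a ratio of 2.30 (1.27 to 4.57). Bcl2l1 stood at 165 CPM (376 UMIs) in DHT and 106 CPM (55 UMIs) in Vehicle, a ratio of 1.56 (1.17 to 2.10), and it passed the limit in 14 of 16 settings (1.42 to 1.67). Bbc3 rested on 32 UMIs in DHT and 4 UMIs in Vehicle, and its interval of 0.646 to 7.09 includes no difference. Bax had a ratio of 0.659 (0.495 to 0.885). Beside these, 10 of 18 measured G2 and M phase genes and 7 of 17 S phase genes were called higher in DHT B cell-like cells, with median log2 ratios of 0.73 and 0.55, and their part in the member differences was not tested.

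In granulocyte-monocyte progenitor-like cells, marked by Elane and Mpo, 1 of 8 measured members was called, beside 3.07% of genes called higher and 0.856% lower. It was Pmaip1, at 3.59 CPM (77 UMIs) in DHT and 6.56 CPM (70 UMIs) in Vehicle, a ratio of 0.547 (0.391 to 0.768), and it passed the limit in 13 of 14 settings (0.448 to 0.784). In monocyte-like cells 0 of 9 measured members were called, beside 1.99% of genes called higher and 0.572% lower, and in neutrophil-like cells 0 of 8, beside 2.55% and 1.13%. Bcl2 stood at 38.2 CPM in DHT and 34.4 CPM in Vehicle monocyte-like cells, the 1 class in which it was higher in DHT. In neutrophil-like cells Mcl1 stood at 428 CPM in DHT and 373 CPM in Vehicle, a ratio of 1.14 (1.11 to 1.19), and Bcl2l11 at 84.8 and 78.7 CPM, a ratio of 1.08 (0.999 to 1.16). This class joins unlike clusters. In Vehicle, Mcl1 stood at 815 CPM in cluster 4, 291 CPM in cluster 7 and 142 CPM in cluster 11, and Bcl2l11 at 215, 35.0 and 22.7 CPM.

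The classes themselves differed far more than the libraries. In the Vehicle library Bcl2l1 was 17.1-fold higher in B cell-like than in osteoclast-like cells, and Bcl2 was 12.2-fold higher in B cell-like than in neutrophil-like cells. Pmaip1 was 24.4-fold higher in conventional dendritic cell-like than in B cell-like cells, where it rested on 1 UMI. Mcl1 and Bax varied less, by 3.30-fold and 4.53-fold between the highest and the lowest class, and Bbc3 varied by 2.38-fold.

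Across 14 clusters of the Vehicle library with at least 50 cells, the genes whose log2 levels followed the 4 most variable members most closely were found among 8949 genes. For Bcl2a1b they were Il4i1 (Pearson's r of 0.94), Bcl2a1d (0.91) and Gbp2 (0.90), and for Bcl2a1d they were Flt3 (0.96), Slc46a3 (0.96) and Il4i1 (0.96). For Bcl2l1 they were Map3k3 (0.94), Sfn (0.93) and Ppt1 (0.92), and for Pmaip1 they included Iscu (0.87) and Nfkbib (0.83). The clusters share 1 library and differ in depth, so these values only describe it.

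Shares of cells with a UMI depend on depth, so each cell was thinned to 4719 UMIs, which left out 1060 DHT cells and 570 Vehicle cells. In osteoclast-like cells the share with Bax was 67.8% in DHT (1367 of 2016 cells, 65.7% to 69.8%) and 75.7% in Vehicle (3078 of 4065 cells, 74.4% to 77.0%), against 97.4% and 99.1% without thinning. The share with Bcl2l11 was 29.9% in DHT (27.9% to 31.96%) and 27.6% in Vehicle (26.2% to 29.0%), against 85.8% and 86.2% without thinning. The shares of Bax therefore had the same order as its levels, while those of Bcl2l11 had intervals that overlap. Bcl2l1, at 2.88% and 2.80%, and Bcl2a1b, at 1.69% and 1.60%, were seen in few osteoclast-like cells of either library.

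No class is known to lack these genes, so the share of the lowest class and that of neutrophil genes in other cells stand in for a background. The neutrophil gene S100a8 was seen in 68.5% of DHT and 40.2% of Vehicle osteoclast-like cells after thinning, from median depths of 58779.5 and 61518 UMIs. The lowest class had Bax in 28.8% of DHT and 33.5% of Vehicle cells (neutrophil-like), Bcl2l11 in 8.56% and 3.46% (progenitor-like), and Bcl2a1b in 0% and 0.433% (progenitor-like). For Bcl2l1 the osteoclast-like class was itself the lowest. The stand-in is then that same share, so it cannot tell whether the share is background. The neutrophil-like cells had 13048 and 10654 UMIs at the median before thinning, and the progenitor-like cells 56089 and 40288 UMIs.

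In macrophage-like cells the share with Bcl2l1 was 17.6% in DHT (177 of 1003 cells) and 12.3% in Vehicle (176 of 1431 cells), against 56.8% and 51.1% without thinning. Bax was seen in 57.3% of DHT and 69.7% of Vehicle macrophage-like cells, and Mcl1 in 80.6% and 71.8%. In conventional dendritic cell-like cells, Bcl2a1b was seen in 69.8% of DHT and 56% of Vehicle cells, Bcl2a1d in 57.2% and 37.5%, Pmaip1 in 30.2% and 21.5%, and Bcl2l11 in 22.0% and 11.5%. For each of these genes the order of the shares was that of the levels. For others it was not. Mcl1 was seen in 79.9% of DHT and 84.5% of Vehicle conventional dendritic cell-like cells, although its level was higher in DHT. Bak1 and Bbc3 in that class, and Bcl2, Bcl2a1b, Bcl2a1d and Bbc3 in macrophage-like cells, also had opposite orders. The intervals of the 2 shares overlap for each of these reversed genes.

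**Figure D5:**
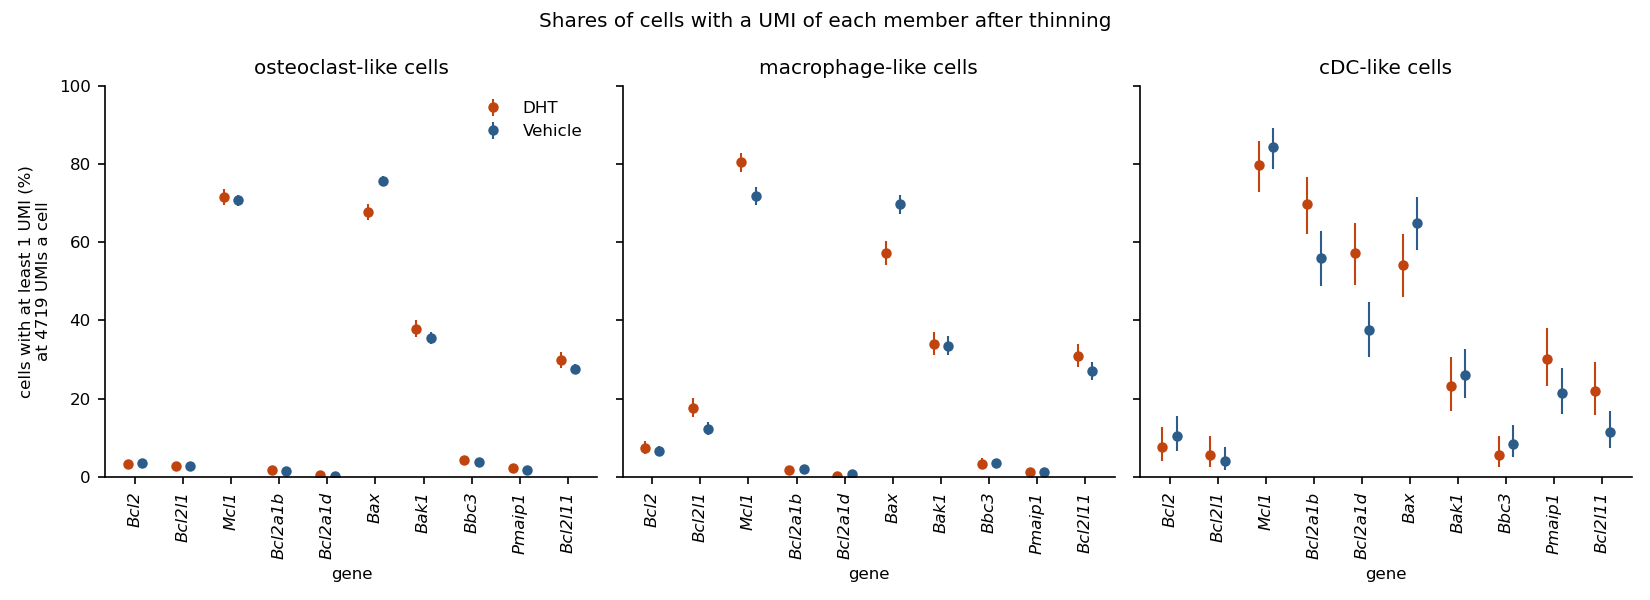
Share of cells with at least 1 UMI of each member (vertical axis, percent) after thinning every cell to 4719 UMIs, in osteoclast-like, macrophage-like and cDC-like cells of the DHT library (orange) and the Vehicle library (blue), with 95% Clopper-Pearson intervals. Bax is lower in DHT in all 3 panels, and Bcl2l1 in macrophage-like cells is 17.6% in DHT and 12.3% in Vehicle.

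Interferon-stimulated genes differed widely between these libraries: 64 of 75 measured ones were called higher in DHT osteoclast-like cells, with a median log2 ratio of 1.34. Thinned osteoclast-like cells of each library were split into 4 equal parts by their share of such UMIs. From the lowest to the highest part, Bax went from 230.0 to 303 CPM within DHT and from 297 to 386 CPM within Vehicle. Bcl2l11 went from 69.8 to 107 CPM within DHT and from 74.0 to 83.8 CPM within Vehicle, and Mcl1 from 321 to 292 CPM and from 299 to 282 CPM. In each of the 4 parts Bax was lower in DHT than in the same part of Vehicle, although the parts do not hold the same interferon UMIs in both libraries. The split is a range of a score, not a cell type, and no test was made.

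Among the other death pathway lists in osteoclast-like cells, Zbp1 was the 1 gene called, and the median log2 ratio of all measured genes was 0.04. Of 7 measured other Bcl2 family genes 0 were called, with a median of 0.07, from Bcl2l2 at 0.35 to Bad at -0.08, both regulators of the same membrane. Of 15 measured pore, apoptosome and caspase genes 0 were called, with a median of 0.03, among them Casp2 at 0.12 and Endog at -0.10. Of 6 measured caspase inhibitors 0 were called, with a median of 0.07, from Birc2 at 0.23 to Birc6 at -0.02. Of 12 measured death receptor genes 0 were called, with a median of 0.06, from Tnfrsf1b at 0.26 to Tradd at -0.08.

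Of 10 measured genes of lytic death 1 was called, with a median of -0.11. Zbp1, a nucleic acid sensor that interferon induces, stood at 8.45 CPM in DHT and 0.737 CPM in Vehicle osteoclast-like cells, a log2 ratio of 3.52. Mlkl, the necroptosis effector, was at 0.50, while its activating kinase Ripk3 was at -0.37 and Gsdme was at -0.50. Of 11 measured p53 genes 0 were called, with a median of 0.17, and the highest were Sesn2 at 0.49 and Trp53inp1 at 0.47 while Trp53 itself was at -0.01. Of 19 measured regulators of the members 0 were called, with a median of 0.09, from Atf4 at 0.29 and Stat3 at 0.25 to Fbxw7 at 0.01.

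In the other classes, the genes of these lists called in macrophage-like cells included Ddit3, a stress factor that can raise Bcl2l11, at 11.9 CPM in DHT and 5.00 CPM in Vehicle, and Bnip3 at 50.2 and 31.1 CPM. In conventional dendritic cell-like cells they included the NF-kappaB genes Rel at 409 and 188 CPM and Relb at 299.5 and 179 CPM, the caspase inhibitor Birc2 at 122 and 61.7 CPM, and Bcl2l14 at 30.6 and 5.76 CPM. NF-kappaB subunits are known regulators of Bcl2a1, and no link between the 2 was tested.

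Barcodes removed for over 10% mitochondrial UMIs, 1558 in DHT and 1389 in Vehicle, had less Bax and Mcl1 than the filtered cells. Bax stood at 57.0 CPM in DHT and 84.5 CPM in Vehicle, again lower in DHT, and Mcl1 at 168 and 142 CPM. Bcl2l11 stood at 67.2 CPM in DHT and 70.0 CPM in Vehicle, and Bcl2l1 at 19.2 and 18.8 CPM, with ratio intervals that include no difference.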

How the data were processed

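The authors deposited 1 filtered matrix of whole UMI counts per gene and barcode for each library, from 10x Genomics 3′ v3.1 libraries per the labels' protocols; Cell Ranger 7.0.1 is named in the submitters' processing notes, which list 2 builds, mm10 and GRCh38, and give no role for either. The counts were used as deposited. A barcode was kept where it held 300 genes, 800 UMIs or more, and no more than 10% mitochondrial UMIs, which removed 2887 DHT and 1884 Vehicle barcodes, and Scrublet (in scanpy 1.11.5, expected rate 0.08) removed 203 (2.57%) and 156 (1.78%) doublets. Cells of both libraries were clustered together without batch correction (2000 variable genes without members, death lists and interferon genes, 30 components, 15 neighbours, Leiden resolution 0.6). A cluster was named "-like" where at least 1 marker was among its 10 leading genes, at least 3 and at least 50% of the markers were over 2-fold above the median of the other clusters (10 CPM added), and its median reached 2000 UMIs. Cluster 3 (median 1947 UMIs), cluster 14 (led by immunoglobulin genes against its name) and cluster 15 (18 and 7 cells) were not compared.

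Counts were summed per library and class and divided by the total (CPM), with exact Poisson intervals for levels, exact conditional binomial intervals for ratios and Clopper-Pearson intervals for shares, all at 95%. With 1 library per group no test was made, and depth limits precision mostly in the B cell-like class. Thinning drew UMIs without replacement to the 10th percentile of cell depth, 4719 UMIs. The functions for calls and intervals were tested on simulated data. Gene positions come from the GENCODE annotation of GRCm38, to which 99.6% of 32285 gene IDs matched, and promoters from RefSeq on GRCm38.p6. All 10 members were described in all cells and in osteoclast-like cells. For each further list the genes called and the 2 highest and 2 lowest in osteoclast-like cells, and genes called in other classes, could be named, and likewise the 3 genes most like each of the 4 members with the widest range over classes; some of these are not reported here. The members, lists, markers and rules were chosen with earlier results of these data known. Alternatives covered scaling, weights of cells, depth, filters, doublets, CPM minimum, free RNA, clustering, class mix and thinning depth.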

Additional observations from a re-analysis of the deposited data

How the results depend on the processing

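The count of members at least 1.5-fold apart over all filtered cells, 3 as reported, was 1 with the mean of each cell's CPM, 1 with the 10% highest doublet scores removed and 0 with a minimum of 20 CPM, which leaves out the 3 low genes. In osteoclast-like cells the count, 0 as reported, was 1 at Leiden resolutions 0.3 and 1.0, with all variable genes, at mitochondrial limits of 5% and 20%, and under a minimum of 1000 genes and 2000 UMIs; each time the member was Bcl2a1b, higher in DHT. The count of member and class pairs over the other classes, 8 as reported, was 5 with the 10% highest doublet scores removed and 5 at the mitochondrial limit of 5%. The share of osteoclast-like cells, 26.5% in DHT and 47.6% in Vehicle as reported, was lower in DHT in every alternative run, but its size moved. It was 26.1% and 27.1% with the 10% highest doublet scores removed. Under the minimum of 1000 genes and 2000 UMIs it was 13.8% and 19.8%. The cause of these moves was not tested. Bax was below 0 on the log2 scale in each class under every alternative run. No scaling moved the median of all genes by 0.1 (log2). No paired analysis was possible because each condition has 1 library. The design holds 1 library per condition, so differences between cultures, wells or library preparations cannot be told apart from that of DHT, and Bcl2a1d, Pmaip1 and Bbc3 rest on 11 to 32 UMIs in DHT and on 1 to 5 UMIs in Vehicle B cell-like cells.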

Other observations

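The clusters that were not compared as classes held members too. In cluster 3, whose cells had a median of 1947 UMIs and whose leading genes included Gpnmb and Pf4, Bcl2l1 stood at 8.55 CPM (52 UMIs) in DHT and 2.93 CPM (35 UMIs) in Vehicle, a ratio of 2.92 (1.86 to 4.61). In cluster 14, led by Igkc and Ighg1, Bcl2 stood at 186 CPM (219 UMIs) in DHT and 165 CPM (102 UMIs) in Vehicle, above its level in each of the 7 classes of the same library. The 3 Bcl2a1 copies in cluster 6 of the osteoclast-like class were lower in DHT, at 1.71 CPM (40 UMIs) and 2.99 CPM (132 UMIs), a ratio of 0.572 (0.391 to 0.821). Both of these levels were under the minimum of 5 CPM. In cluster 1 of the same class the ratio of the 3 copies was 1.54 (1.36 to 1.73). In B cell-like cells the genes of the death lists called higher included Dffb, the nuclease of apoptotic DNA cleavage, at 17.1 CPM in DHT and 5.79 CPM in Vehicle, and those called lower included Bnip3 at 15.4 and 30.9 CPM. The Vehicle levels rest on few UMIs, as these cells held 518347 UMIs in all. Of all measured genes in this class, 13.5% were called higher and 7.04% lower.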
